A study of Homo sapiens with 3 samples.

Results

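RTN1, MAPT, TUBB2B, LSAMP, NCAM1, L1CAM, FGF13 and SCN9A, 8 genes known chiefly from neurons, were followed through 3 cultures of single cells, out of 18692 gene symbols listed in any culture. They were chosen by their measured levels in these same libraries, as neural genes that were low in the mid-term or the long-term derivative or high again in the long-term one. Their differences between cultures are therefore given as a description. All 8 were listed in each culture.

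H460 cells are an established line grown from a human lung cancer of the large-cell type. The labels describe a reprogramming procedure in which carcinoma cells were moved onto a feeder layer of irradiated human fibroblasts and into a stem cell medium, and they name the derived lines mid-term and long-term dR-H460, shortened to mdR-H460 and ldR-H460. Later steps, the time each name stands for and the medium at harvest were not stated in the sources used here. The sample descriptions carry a code for each culture, which is not explained there and is not interpreted here. In all, 3 libraries held 4531 H460, 5151 mdR-H460 and 4956 ldR-H460 cells, with 60468481 to 66624830 UMIs (single RNA molecules counted by barcode) each and a median of 11736 to 14685 UMIs per cell. Each culture gave 1 library from 1 line, so no test between cultures was possible, and each interval below covers counting error at 95% and not the spread between cultures.

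Nerve cells depend on a few kinds of protein that these genes represent. Cell adhesion molecules of the immunoglobulin family (NCAM1, L1CAM, LSAMP) sit on the surface of axons and guide their growth and contacts. Tubulins and microtubule-associated proteins (TUBB2B, MAPT) build and stabilise the axonal cytoskeleton, reticulons such as RTN1 shape the endoplasmic reticulum, and sodium channels (SCN9A) together with their intracellular partners (FGF13) carry and tune the action potential. Such genes are also found in lung carcinomas, above all in those with neuroendocrine features.

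A gene's level is its CPM, the sum of its UMIs in a library per 1000000 UMIs of that library. Past a 2-fold difference, 7 of the 8 genes were lower and 0 higher in mdR-H460 than in the parental line. Of 12002 genes that reached 1 CPM in either library of that pair, 10.1% were lower and 2.90% higher by as much. In ldR-H460 against H460, 3 of the 8 were lower and 1 higher, beside 10.9% and 5.43% of all genes. In ldR-H460 against mdR-H460, 7 of the 8 were higher and 1 lower, or 6 higher and 1 lower of the 7 that reached 1 CPM, beside 5.14% and 4.42% of all genes. The genes were picked for these differences, so nothing is read from the counts.

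With a stricter limit of 10 CPM, 5 of the genes were measured in mdR-H460 against H460, and all 5 (RTN1, TUBB2B, LSAMP, NCAM1 and FGF13) were lower past 2-fold, where 7.04% of all genes (451) were lower and 1.83% (117) higher. Scaling by TMM factors, which added 0.18 to each log2 ratio of this pair and 0.12 to those of ldR-H460 against H460, gave 304 lower and 167 higher. In ldR-H460 against H460, 7 were measured, of which 3 were lower and 1 higher, beside 7.98% (523) and 3.33% (218) of all genes, or 408 and 277 with TMM. In ldR-H460 against mdR-H460, 4 were measured (RTN1, MAPT, TUBB2B and SCN9A) and all 4 were higher, beside 2.57% of genes higher and 3.09% lower. Over the 8 genes the log2 ratio had a median of -3.44 in mdR-H460 against H460, -0.36 in ldR-H460 against H460 and 2.57 in ldR-H460 against mdR-H460, while over all genes that reached 1 CPM it was -0.17, -0.13 and 0.08.

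**Figure D1:**
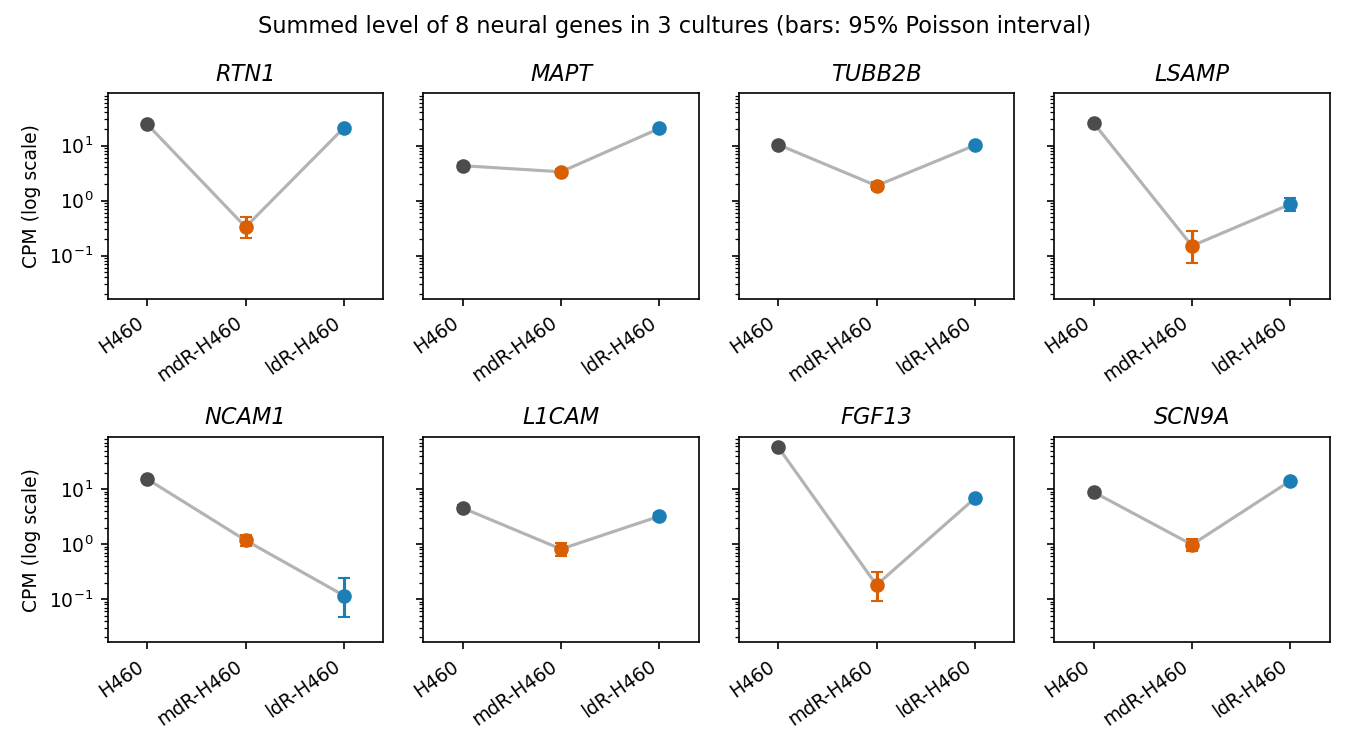
CPM on a log axis of each of the 8 genes in H460, mdR-H460 and ldR-H460, 1 library each, with 95% Poisson intervals of the summed UMIs. RTN1, TUBB2B, L1CAM and SCN9A are low in mdR-H460 and back near or above the H460 level in ldR-H460, FGF13 and LSAMP are back in part or hardly at all, NCAM1 is lowest in ldR-H460 and MAPT is highest there.

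The endoplasmic reticulum protein gene RTN1 (GRCh38 chromosome 14, 59595976 to 59870966) had 24.5 CPM in H460, 0.330 in mdR-H460 and 21.1 in ldR-H460. It was nearly absent from mdR-H460 and almost as high in ldR-H460 as in the parental line. The level was 74.1-fold (48.8 to 119) lower in mdR-H460 than in H460, 63.9-fold (42.0 to 102) higher in ldR-H460 than in mdR-H460, and the ldR-H460 level was 0.862 of that in H460 (0.800 to 0.928). The mdR-H460 value rests on 22 UMIs, and with every cell thinned to 5000 UMIs it rested on 3 cells and gave ratios of 0.00601 of mdR-H460 over H460 and 149 of ldR-H460 over mdR-H460.

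The tubulin gene TUBB2B (chromosome 6, 3224261 to 3231730), needed in humans for the migration of cortical neurons, had 10.4 CPM in H460, 1.86 in mdR-H460 and 10.1 in ldR-H460. Its levels in ldR-H460 and H460 could not be told apart within counting error, at a ratio of 0.973 (0.871 to 1.09). In mdR-H460 it was 5.60-fold (4.62 to 6.84) lower than in the parent, and in ldR-H460 5.45-fold (4.48 to 6.66) higher than in mdR-H460, or 3.39-fold with every cell weighted equally. TUBB2A, a near-identical tubulin gene whose reads may be shared with TUBB2B, had 47.7 CPM in H460, 37.9 in mdR-H460 and 53.6 in ldR-H460, so the split between the tubulin pair is uncertain. PSMG4, which overlaps TUBB2B on the opposite strand, had 61.9, 64.9 and 101 CPM in the same order. Nothing states whether the counting used strand, so reads of TUBB2B and PSMG4 may not be separated.

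L1CAM (chromosome X, 153861514 to 153886174), the axonal adhesion molecule that also marks invasive tumour cells, had 4.53 CPM in H460, 0.811 in mdR-H460 and 3.21 in ldR-H460. Its order was the same as that of RTN1, at a lower count of 300, 54 and 194 UMIs. It was 5.59-fold (4.17 to 7.62) lower in mdR-H460 than in H460 and 3.96-fold (2.91 to 5.46) higher in ldR-H460 than in mdR-H460, and the ldR-H460 level was 0.708 (0.588 to 0.851) of the H460 level.

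SCN9A (chromosome 2, 166195185 to 166376001) encodes the pain-related sodium channel Nav1.7. Its level was 8.82 CPM in H460, 0.976 in mdR-H460 and 14.2 in ldR-H460, so it went past the parental level in the long-term line. It was 9.04-fold (6.99 to 11.9) lower in mdR-H460 than in H460, 14.5-fold (11.3 to 19.0) higher in ldR-H460 than in mdR-H460 and 1.60-fold (1.44 to 1.79) higher in ldR-H460 than in H460. The last of these was 1.32-fold in thinned cells.

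FGF13 (chromosome X, 138614731 to 139222777) belongs to the intracellular fibroblast growth factor homologous factors, which bind sodium channels and microtubules. It had 58.0 CPM in H460, 0.180 in mdR-H460 and 6.81 in ldR-H460, with 3839, 12 and 412 UMIs. FGF13 was thus far lower in mdR-H460, and in ldR-H460 it lay between the other cultures. The fold was 322 (184 to 624) lower in mdR-H460 than in H460, 37.8 (21.4 to 73.8) higher in ldR-H460 than in mdR-H460 and 8.51 (7.69 to 9.45) lower in ldR-H460 than in H460. FGF13-AS1, annotated on the opposite strand within FGF13, had 7.39, 0 and 0.992 CPM in the same order, and since nothing states whether the counting used strand, reads of the overlapping pair may not be separated.

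LSAMP (chromosome 3, 115802363 to 117139389), the limbic system-associated membrane protein of the IgLON family, had 25.8 CPM in H460, 0.150 in mdR-H460 and 0.860 in ldR-H460. It was low in both derivatives, with 10 UMIs in mdR-H460 and 52 in ldR-H460. LSAMP was 172-fold (93.2 to 359) lower in mdR-H460 than in H460 and 30.0-fold (22.8 to 40.3) lower in ldR-H460 than in H460. The ratio of ldR-H460 over mdR-H460 was 5.73 (2.88 to 12.6), at levels under 1 CPM in both. With every cell weighted equally it was 3.74, and mdR-H460 over H460 gave 0.0108 in place of 0.00582.

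NCAM1 (chromosome 11, 112961247 to 113278436), the neural cell adhesion molecule known as CD56 and a marker of neuroendocrine tumours, had 15.2 CPM in H460, 1.17 in mdR-H460 and 0.116 in ldR-H460. It was the one gene of the 8 that was lower in ldR-H460 than in mdR-H460. The fold was 13 (10.3 to 16.6) lower in mdR-H460 than in H460, 132 (63.6 to 328) lower in ldR-H460 than in H460 and 10.1 (4.68 to 26) lower in ldR-H460 than in mdR-H460, where ldR-H460 held 7 UMIs. In thinned cells, with 1 UMI in ldR-H460, the ratios were 0.00273 over H460 and 0.0245 over mdR-H460.

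MAPT (chromosome 17, 45894382 to 46028334) encodes the microtubule-binding protein tau. It had 4.31 CPM in H460, 3.33 in mdR-H460 and 20.5 in ldR-H460, so it was the one gene of the 8 within 2-fold of the parental level in mdR-H460. It was 4.76-fold (4.18 to 5.43) higher in ldR-H460 than in H460 and 6.15-fold (5.33 to 7.13) higher in ldR-H460 than in mdR-H460. The ratio of mdR-H460 over H460 was 0.774 (0.646 to 0.926), and it lay between 0.772 and 0.883 over the ways of scaling and of choosing cells that were tried.

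Promoter sequence was set beside these courses, since the series title names an epigenetic mechanism and CpG dinucleotides are where DNA methylation occurs in human cells. No methylation was measured in these libraries. RefSeq promoter windows (GRCh38.p14, 250 bases before to 50 after a start) matched 6 of the 8 genes, all but MAPT and NCAM1, with 10 windows. The windows of 4 genes are shown, 3 of them for genes that were higher again in ldR-H460 (for RTN1 and FGF13 the window with most CpG). The other is that of LSAMP, which was under 1 CPM in both derivatives. Each is written 5′ to 3′ on the minus strand of the genome, and CpG dinucleotides are in capitals.
RTN1, chr14:59630574-59630873: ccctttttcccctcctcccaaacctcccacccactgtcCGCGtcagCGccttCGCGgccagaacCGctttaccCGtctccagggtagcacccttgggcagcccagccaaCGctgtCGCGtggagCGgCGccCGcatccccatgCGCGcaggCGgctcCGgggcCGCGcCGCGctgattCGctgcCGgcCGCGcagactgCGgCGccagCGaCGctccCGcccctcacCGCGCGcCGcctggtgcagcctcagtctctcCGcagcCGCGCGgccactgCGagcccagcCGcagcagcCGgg
TUBB2B, chr6:3227604-3227903: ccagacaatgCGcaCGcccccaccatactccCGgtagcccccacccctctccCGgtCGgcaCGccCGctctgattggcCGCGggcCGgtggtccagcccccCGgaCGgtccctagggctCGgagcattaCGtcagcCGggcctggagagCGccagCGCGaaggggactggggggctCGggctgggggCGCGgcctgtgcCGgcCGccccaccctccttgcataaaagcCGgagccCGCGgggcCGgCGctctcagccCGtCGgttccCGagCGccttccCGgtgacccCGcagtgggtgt
FGF13, chrX:139204974-139205273: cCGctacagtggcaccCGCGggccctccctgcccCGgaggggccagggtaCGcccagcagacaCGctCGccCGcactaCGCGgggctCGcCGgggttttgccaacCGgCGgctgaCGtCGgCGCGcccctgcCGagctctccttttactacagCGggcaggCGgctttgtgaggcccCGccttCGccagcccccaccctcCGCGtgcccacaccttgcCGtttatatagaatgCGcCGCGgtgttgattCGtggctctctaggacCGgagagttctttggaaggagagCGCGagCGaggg
LSAMP, chr3:116445438-116445737: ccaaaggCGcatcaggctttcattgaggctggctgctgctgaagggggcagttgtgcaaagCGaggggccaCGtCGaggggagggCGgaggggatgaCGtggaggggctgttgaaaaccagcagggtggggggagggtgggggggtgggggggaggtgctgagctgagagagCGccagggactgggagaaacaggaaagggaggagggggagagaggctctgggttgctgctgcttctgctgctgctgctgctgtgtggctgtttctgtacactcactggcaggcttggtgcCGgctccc

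The windows of RTN1, TUBB2B and FGF13 shown held 41, 34 and 34 CpG dinucleotides, and that of LSAMP held 8. This single LSAMP window lies inside the gene, whose annotated 5′ end is at 117139389, so the outermost start was not looked at. The windows shown for the other 3 genes, and those of L1CAM, also lie inside the annotated spans. All 35116 windows of 300 bases had a median of 14 CpG, with quartiles of 4 and 28. SCN9A had 28 CpG, and L1CAM, which was also higher again in ldR-H460, had 10 and 8 in its overlapping windows. RTN1 had further windows with 25 and 1 CpG and FGF13 one with 0, so showing the richest window widens the contrast with LSAMP. The RTN1 window with 25 CpG covers the annotated 5′ end of that gene. Counts from the 3′ end of the RNA do not show which start was used. With 6 genes the CpG counts describe these windows and no relation was tested.

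Many neuronal genes carry RE1 sites, which the repressor REST binds to keep them silent outside the nervous system. Each arm of the site was searched on both strands, TTCAGCACC for the left and GGACAGC for the right. Neither was in any of the 10 windows, and they were in 0.376% and 6.03% of all windows. That says no more than that these letters are not in these windows, since RE1 sites also lie within introns and farther away. REST itself had 28.3 CPM in H460, 18.7 in mdR-H460 and 21.7 in ldR-H460, so it was 1.51-fold (1.41 to 1.63) lower in mdR-H460 than in H460.

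To see how many cells carried each gene, every cell was thinned at random to 5000 UMIs, which left 3850 H460, 3880 mdR-H460 and 4521 ldR-H460 cells. Cells with fewer UMIs were left out, 681, 1271 and 435 in the same order. RTN1 had a UMI in 11.7% (10.7 to 12.8) of cells in H460, 0.0773% (0.0159 to 0.226) in mdR-H460 and 10.4% (9.54 to 11.3) in ldR-H460. Without thinning the shares were 27.5%, 0.408% and 20.3%. The shares followed the CPM, with RTN1 seen in 3 mdR-H460 cells.

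FGF13 was seen in 23.7% (22.4 to 25.1) of cells in H460, 0.103% (0.0281 to 0.264) in mdR-H460 and 2.81% (2.35 to 3.33) in ldR-H460, and in 47.6%, 0.194% and 6.70% of unthinned cells. FGF13 was thus in far fewer cells of both derivatives, more so in mdR-H460. LSAMP was in 12.9% (11.8 to 14.0) of cells in H460, 0.0773% (0.0159 to 0.226) in mdR-H460 and 0.597% (0.394 to 0.868) in ldR-H460. NCAM1 was in 7.45% (6.64 to 8.33) of H460 cells, 0.773% (0.522 to 1.1) of those of mdR-H460 and 0.0221% (0.00056 to 0.123) of those of ldR-H460, which is 1 cell of 4521. LSAMP and NCAM1 were thus rare in either derivative.

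MAPT was seen in 2.13% (1.70 to 2.64) of cells in H460, 1.68% (1.30 to 2.13) in mdR-H460 and 9.07% (8.25 to 9.94) in ldR-H460. SCN9A had shares of 4.68% (4.03 to 5.39), 0.593% (0.376 to 0.888) and 6.10% (5.42 to 6.84), and TUBB2B of 4.16% (3.55 to 4.83), 0.593% (0.376 to 0.888) and 4.38% (3.8 to 5.02). L1CAM had 2.31% (1.86 to 2.84), 0.567% (0.356 to 0.857) and 1.46% (1.13 to 1.85). Each of these genes was thus least often seen in mdR-H460, but the intervals of MAPT in mdR-H460 and H460 overlap. Those of TUBB2B in ldR-H460 and H460 overlap as well. Free RNA in the droplets can give a UMI to a cell that does not express a gene, and the cultures hold no cell type known to lack these genes against which that could be measured.

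**Figure D2:**
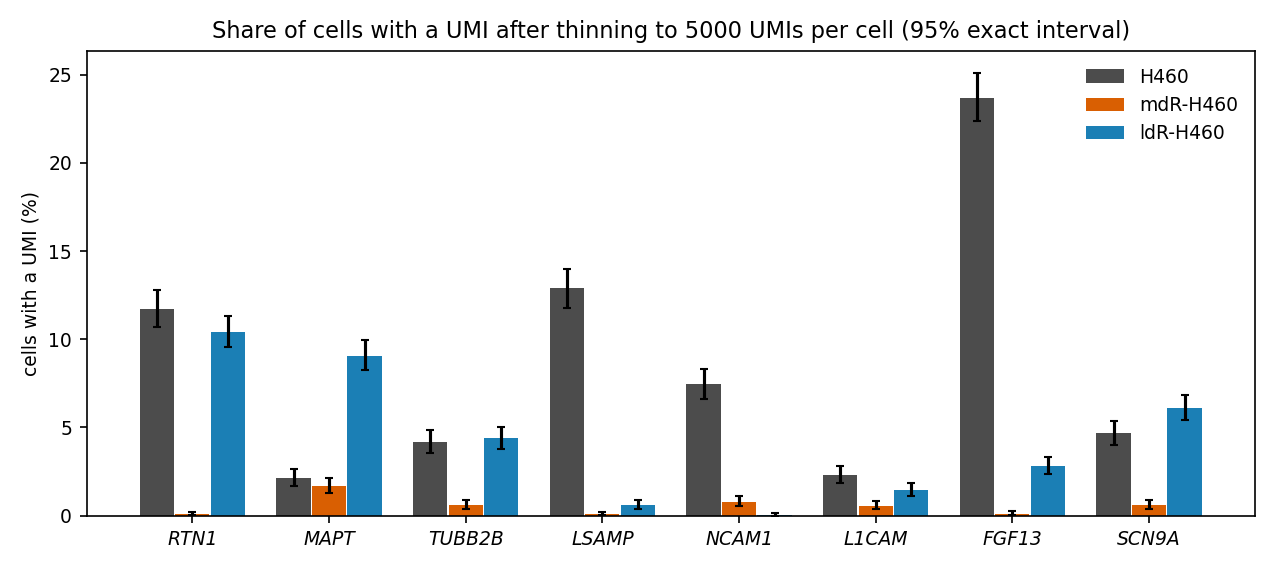
Percent of cells with a UMI of each gene after every cell was thinned to 5000 UMIs, in H460, mdR-H460 and ldR-H460, with exact 95% intervals. RTN1 and TUBB2B have nearly the same share in ldR-H460 as in H460, MAPT has its highest share in ldR-H460, and FGF13, LSAMP and NCAM1 have theirs in H460.

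The amount per positive cell differed less than the number of positive cells. In thinned cells it was 1.1 UMIs for RTN1 in H460, 1 in mdR-H460 and 1.1 in ldR-H460, and for FGF13 1.17, 1 and 1.09 in the same order. At such low counts a cell with a UMI mostly has 1, so fewer expressing cells and less RNA per cell cannot be told apart. Of the 913 H460 cells with FGF13, 126 had at least 2 UMIs, and for MAPT in ldR-H460 it was 51 of 410.

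The evenness of each gene over the cells of a library was read from the Fano factor, the variance of thinned counts over their mean, which is 1 for random sampling of an even level. In H460, TUBB2B stood at 1.28, above the value of 1.15 that 95% of genes at 5 to 60 CPM did not exceed, and the median gene had 1.02. RTN1, LSAMP, NCAM1, FGF13 and SCN9A lay between 1.06 and 1.11. In ldR-H460 the 95% value was 1.09, and TUBB2B at 1.21, MAPT at 1.17, FGF13 at 1.16 and RTN1 at 1.11 were above it. TUBB2B thus had the highest factor of the 8 genes in both these cultures, and 1 H460 cell held 14 of its UMIs before thinning.

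Whether the genes were seen in the same cells was examined in thinned cells by setting the number of cells with both genes of a pair against the product of their shares. In ldR-H460, 15 pairs had at least 50 positive cells for each gene, and in H460 28 pairs did. The median of observed over expected was 0.879 (pairs from 0.346 to 1.62) in ldR-H460 and 0.982 (pairs from 0.335 to 2.11) in H460. Of the ldR-H460 pairs, 0 had a 95% counting interval above 1 and 0 below, and of the H460 pairs 0 above and 1 below. The pairs were spread on both sides of 1, with 7 of 15 above it in ldR-H460 and 13 of 28 in H460.

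The commonest pair in H460, LSAMP with FGF13, was seen in 127 cells where 117 were expected, a ratio of 1.08 (0.902 to 1.29). RTN1 with FGF13 was in 113 cells against 107 expected (1.05, 0.869 to 1.27), and RTN1 with LSAMP in 57 against 58.1 (0.981, 0.743 to 1.27). These genes, which all were nearly absent from mdR-H460, were thus seen together in H460 about as often as their shares give. TUBB2B with NCAM1 was seen in 4 cells against 11.9 expected (0.335, 0.0914 to 0.859), but the ratio was 1.01 at a thinning to 3000 UMIs.

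Among the genes that were high in ldR-H460, MAPT with TUBB2B, both of the microtubule, were together in 27 cells where 18.0 were expected, a ratio of 1.5 (0.991 to 2.19). RTN1 with MAPT had 48 cells against 42.7 (1.12, 0.829 to 1.49) and RTN1 with SCN9A 34 against 28.8 (1.18, 0.819 to 1.65). The intervals of all 3 pairs include 1.

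**Figure D3:**
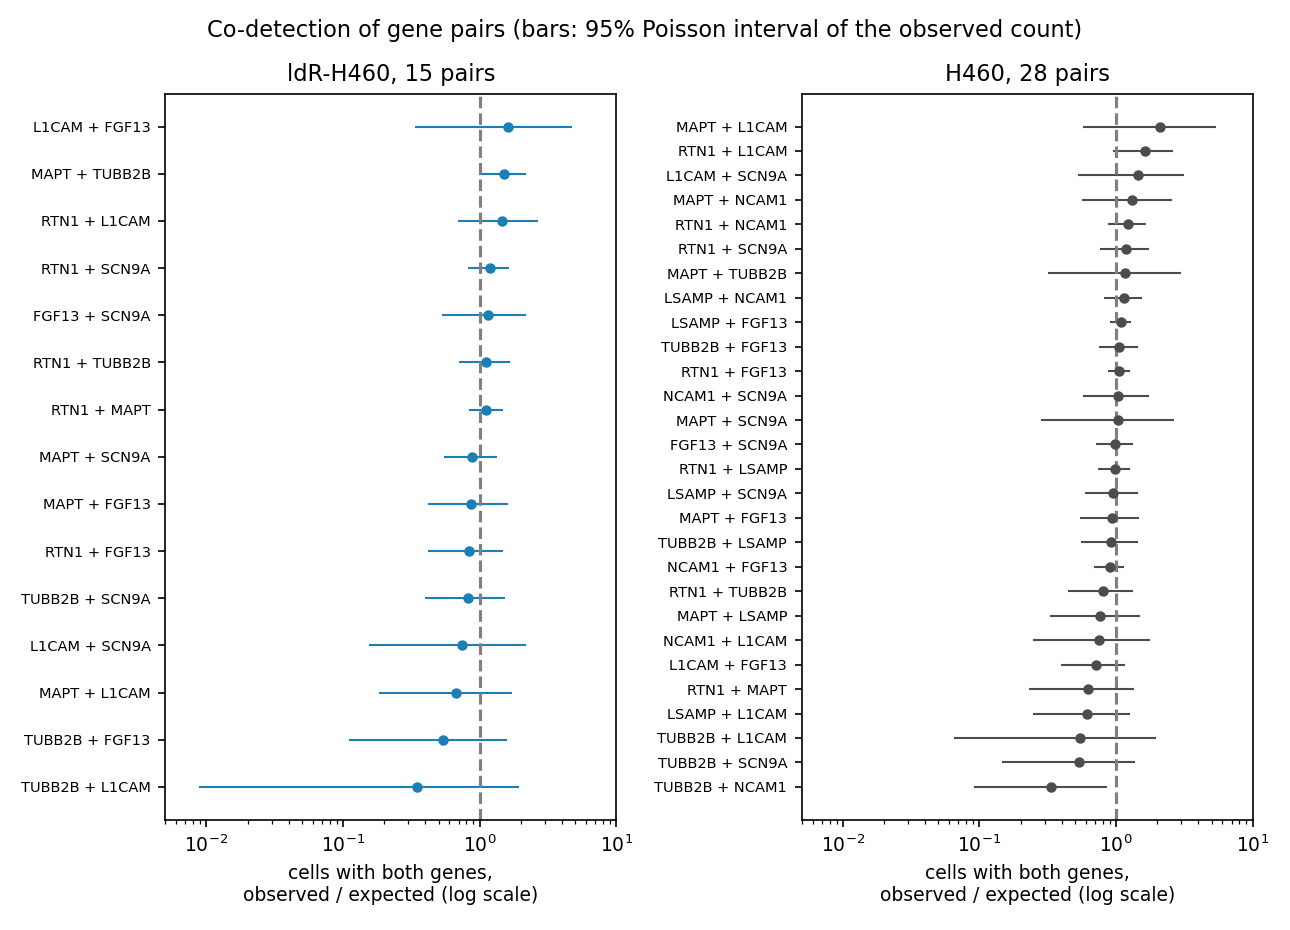
Cells with UMIs of both genes of a pair, observed over expected from the product of the shares (log axis), in 15 pairs of ldR-H460 and 28 of H460 on cells thinned to 5000 UMIs, with 95% Poisson intervals of the observed count. The dashed line marks 1, and TUBB2B with NCAM1 in H460 is the one pair whose interval does not include it.

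Counting how many of the 8 genes were seen in a cell gave numbers near those of independent genes in H460 and ldR-H460. In H460, 47.7% of thinned cells had 0, 37.5% had 1, 12.9% had 2 and 1.87% had 3 or more, where the product of the shares gives 47.4%, 38.4%, 12% and 2.12%. In mdR-H460, 95.7% of cells had 0 and 4.10% had 1, beside 95.6% and 4.31% from the shares, and 7 cells had 2 genes where 2.92 were expected. In ldR-H460, 69.8% had 0, 25.9% had 1, 3.87% had 2 and 0.398% had 3 or more, beside 69.6%, 26.2%, 3.87% and 0.296%.

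**Figure D4:**
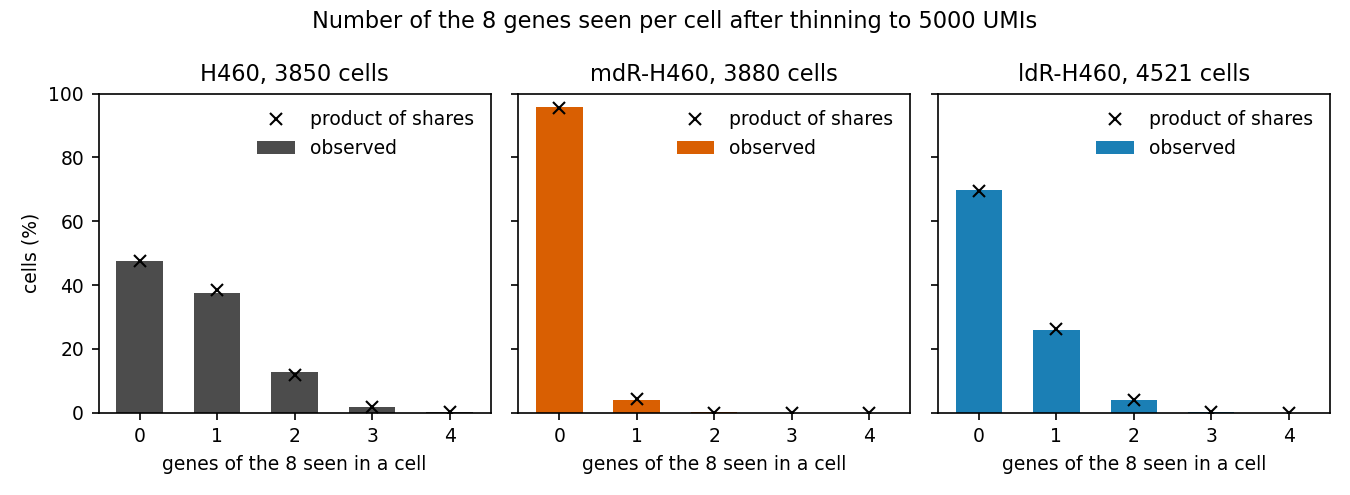
Percent of cells in which 0 to 4 of the 8 genes were seen after thinning to 5000 UMIs, in H460, mdR-H460 and ldR-H460. Bars are the observed shares and crosses those given by the product of the shares of single genes, and the crosses lie at the tops of the bars, 47.4% against 47.7% for 0 genes in H460.

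The mdR-H460 cells that did hold a UMI of RTN1, LSAMP or FGF13, 3 genes grouped after their values were seen, were looked at without thinning. There were 41 such cells of 5151, and 0 of them had UMIs of 2 or 3 of these genes. With 21, 10 and 10 positive cells for the 3 genes hardly any such cell could be seen, so nothing is read from the 0. Cell barcodes shared with another library, 54 in mdR-H460, included 1 of the 21 cells with RTN1 and 0 of the 10 cells each with LSAMP or FGF13.

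NCAM1 in mdR-H460 was in more cells than these. Of 68 positive cells before thinning, 8 had at least 2 UMIs and the highest had 4. The Fano factor in thinned cells was 1.45, on 30 positive cells of which 3 had at least 2 UMIs and the highest had 4. RTN1, LSAMP and FGF13 had 3 to 4 such positive cells each. The 95% value in mdR-H460, 1.22, is for genes at 5 to 60 CPM, and NCAM1 had 1.17 CPM. Nothing is read from its factor. Of the 30 thinned positive cells, 21 were called G1 by their cell cycle genes, or 1.62% (1.01 to 2.47) of G1 cells, beside 0.532% (0.195 to 1.15) of S phase and 0.206% (0.0425 to 0.600) of G2/M cells. The G1 interval and that of G2/M cells do not overlap, on 21 and 3 cells. Phases were read for all 8 genes in 3 cultures, and this contrast is 1 of many and was not tested. In H460, NCAM1 was in 8.87% (7.40 to 10.5) of G1 and 7.30% (5.78 to 9.06) of G2/M cells, with intervals that overlap.

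The courses were also read within cell cycle phases, since 17.6% of thinned ldR-H460 cells were called G1, beside 33.4% of mdR-H460 and 34.9% of H460. RTN1 was seen in 11.7% (9.53 to 14.1) of G1, 9.91% (8.59 to 11.4) of S phase and 10.4% (9.04 to 11.9) of G2/M cells of ldR-H460. In H460 it was seen in 13.4% (11.6 to 15.4), 11.9% (10.3 to 13.7) and 9.34% (7.63 to 11.3) of these phases, where the G1 and G2/M intervals do not overlap. In mdR-H460 RTN1 was seen in 1 cell of each. The low level in mdR-H460 was thus present in every phase. SCN9A was seen in 5.96% (4.75 to 7.36) of G1 and 3.02% (2.06 to 4.25) of G2/M cells of H460, with intervals that do not overlap, and in 7.54% (5.80 to 9.60) and 5.57% (4.57 to 6.72) of those of ldR-H460, with intervals that do.

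Genes whose counts followed those of the 8 from cell to cell were sought for the members with at least 100 positive thinned cells, which left out L1CAM and all of mdR-H460, MAPT in H460, and LSAMP and NCAM1 in ldR-H460. Over 9921 genes in 3850 H460 cells the Pearson r of log counts reached at most 0.12, as for NCAM1 with RERE. Over 9967 genes in 4521 ldR-H460 cells it was 0.10, of RTN1 with TMSB4X and of FGF13 with RPS2, and MAPT had its highest r, 0.08, with the neurofilament gene NEFL. All cells of a library share its depth and makeup, and nothing is read from an r of this size in sparse counts.

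Listed genes that reached 1 CPM in any library were then counted at 1.5-fold. Of all 12261 genes at that level, 22.2% were lower and 6.66% higher in mdR-H460 than in H460, 22.1% lower and 11.6% higher in ldR-H460 than in H460, and 14.8% higher and 11.2% lower in ldR-H460 than in mdR-H460. All 12 lists pooled, which hold neural families as well as repressor genes and markers of epithelium, fibroblasts and glia, had 75 measured genes besides the 8, of which 30 were lower and 8 higher in mdR-H460 than in H460, 34 lower and 8 higher in ldR-H460 than in H460, and 16 higher and 19 lower (NCAM2 counted among them at its floor) in ldR-H460 than in mdR-H460. With TMM 14 were higher and 28 lower in the first of these pairs. The median log2 ratios of the 75 were -0.39, -0.45 and 0.16, beside -0.16, -0.13 and 0.07 over all genes.

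Neural adhesion molecules of the immunoglobulin type were lower in 9 of 11 measured members in mdR-H460 than in H460 and higher in 0. Over all genes 22.2% were lower and 6.66% higher. The list's median log2 was -2.39, and 3 of these 9 members are among the 8 genes. NCAM2, the close relative of NCAM1, had 514 UMIs in the parental line, none listed in mdR-H460 and 1 UMI in ldR-H460, which makes mdR-H460 at least 172-fold lower. ROBO1, a receptor for the axon repellent SLIT, had 245 UMIs in H460, 3 in mdR-H460 and 12 in ldR-H460. CHL1, a close homolog of L1CAM, had 21.8, 4.14 and 1.12 CPM in the same order and CNTN1, a contactin of axons, 8.11, 2.57 and 0.860. NCAM1, CHL1 and CNTN1 were thus each lowest in ldR-H460. There 6 of 11 members were lower than in H460 and 0 higher, beside 22.1% and 11.6% of all genes.

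Not all adhesion genes had that order. ALCAM had 10.0 CPM in H460, 3.06 in mdR-H460 and 7.66 in ldR-H460, an order like that of L1CAM. NRCAM, also of the L1 family, had 13.9, 10.2 and 15.1 CPM, and CADM2, a synaptic adhesion molecule, 10.7, 10.7 and 12.2. Against mdR-H460, 5 of 11 members were higher in ldR-H460, beside 14.8% of all genes. L1CAM and LSAMP are among the 5. NCAM1, CHL1 and CNTN1 were lower, where 11.2% of all genes were. NCAM2 was at or under 3 UMIs in both and has no order.

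Among genes of the neuronal cytoskeleton and growth cone, 9 of 19 were lower and 1 higher in mdR-H460 than in the parent. Over all genes 22.2% were lower and 6.66% higher. With TMM 8 of the 19 were lower and 3 higher, and the share of all genes was not counted with TMM. In ldR-H460 against mdR-H460, 6 were higher and 2 lower, beside 14.8% and 11.2% of all genes. TUBB2B is among the 9, and MAPT and TUBB2B, chosen for their levels, are among the 6. NEFL, the light neurofilament chain, had 82.5 CPM in H460, 26.1 in mdR-H460 and 118 in ldR-H460. It was 3.16-fold (2.99 to 3.33) lower in mdR-H460 than in H460 and 4.53-fold (4.30 to 4.78) higher in ldR-H460 than in mdR-H460, the same order as SCN9A. NEFH, the heavy chain, had 5 UMIs in H460, 42 in mdR-H460 and 236 in ldR-H460, 51.7-fold (21.8 to 161) higher in ldR-H460 than in H460. MAP2, the dendritic relative of tau, was highest in ldR-H460, with 9.76, 14.2 and 27.5 CPM.

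Others of that list stayed low in both derivatives. GAP43, a growth cone protein, had 354 UMIs in H460, 4 in mdR-H460 and 3 in ldR-H460. DPYSL3, which takes part in axon guidance, had 5.91, 1.04 and 0.976 CPM, MAP1A, a microtubule-associated protein, 73.9, 14.1 and 18.7, and TUBA1A, the alpha tubulin of developing neurons, 294, 102 and 128. DCLK1, a microtubule-binding kinase, was low in ldR-H460 alone of the cultures. It had 5.24, 7.58 and 0.595 CPM and was 12.7-fold (9.07 to 18.4) lower in ldR-H460 than in mdR-H460. In ldR-H460 against H460 8 of 19 members were lower and 4 higher, beside 22.1% and 11.6% of all genes.

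**Figure D5:**
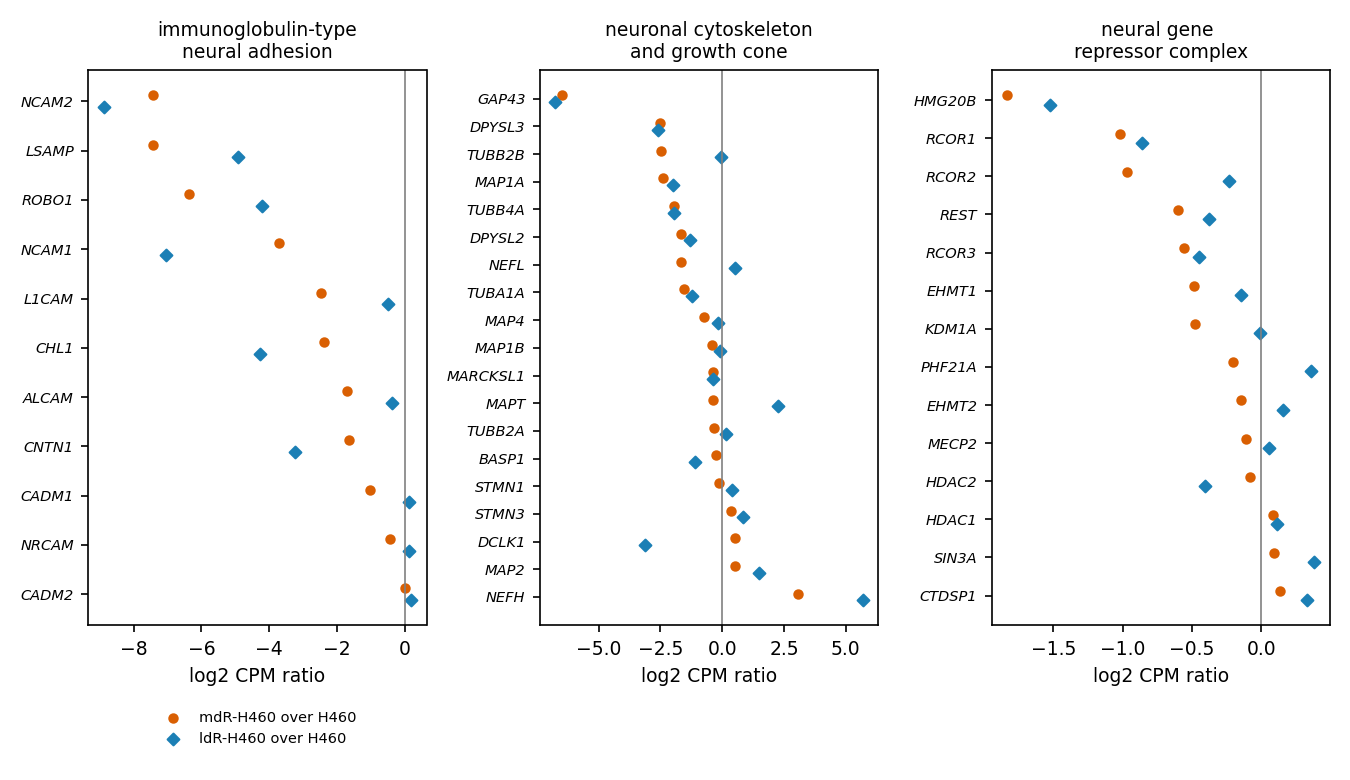
Log2 CPM ratios of mdR-H460 over H460 (circles) and ldR-H460 over H460 (diamonds) for measured members of 3 gene lists, with 0 marking the H460 level. Axis ranges differ between panels, NCAM2 is drawn at its bound of 3 UMIs in mdR-H460 and at 1 UMI in ldR-H460, so its points have no order, and members such as TUBB2B, NEFL and L1CAM have the diamond far to the right of the circle while NCAM1, CHL1 and CNTN1 have it to the left.

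Of the voltage-gated sodium channel genes, 4 of 13 were measured. SCN3A had 91 UMIs in H460, 4 in mdR-H460 and 8 in ldR-H460, and SCN1A, a channel of inhibitory neurons, was listed in neither H460 nor mdR-H460 and had 72 UMIs in ldR-H460, at least 26.3-fold higher than in H460. SCN3A and SCN1A thus had other orders over the cultures than SCN9A, which was present in H460, lower in mdR-H460 and above H460 in ldR-H460.

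The relatives of FGF13 had other orders. FGF14 had 567 UMIs in the parental line, none listed in mdR-H460 and 5 in ldR-H460, at least 190.2-fold lower in mdR-H460 and 104-fold (44.1 to 320.3) lower in ldR-H460 than in H460. FGF12 had 72, 129 and 4 UMIs, with its highest level in mdR-H460. Among reticulons, RTN1 was the 1 of 4 that was lower in mdR-H460, as RTN3 had 28.1, 27.8 and 35.4 CPM and RTN4, the myelin inhibitor also called Nogo, 329, 382 and 323.

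The REST repressor complex was lower in 4 of 14 members in mdR-H460 than in H460 and in 2 of 14 in ldR-H460, with 0 higher in either, beside the 22.2% and 22.1% of all genes that were lower. These counts are near that background, and nothing is read from them. HMG20B, a subunit of the complex with the CoREST proteins, had 136 CPM in H460, 38.2 in mdR-H460 and 47.3 in ldR-H460, and RCOR1, which encodes CoREST, 16.7, 8.23 and 9.19. With TMM scaling 3 of the 14 were lower in mdR-H460. Of 18 proneural and neuronal transcription factors 4 were measured, with 1 higher and 2 lower in either derivative than in H460, and NEUROD1 was not listed in any culture. SOX4 had 190 CPM in H460, 66.5 in mdR-H460 and 16.6 in ldR-H460, and SOX2 0.680, 3.06 and 5.72.

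Markers of other cell types were set beside these results. Of 7 neuron markers, 2 were at 1 CPM or more in each culture (SNAP25 and NEFL), RBFOX3, ELAVL4 and STMN2 were at 0 in all 3, and the sum was 84.8 CPM in H460, 35.4 in mdR-H460 and 124 in ldR-H460, most of it NEFL, with 8.32 CPM of SNAP25 in mdR-H460. Of 7 fibroblast markers, 3, 1 and 2 were at 1 CPM or more with sums of 11.1, 3.06 and 4.68 CPM, THY1 was at 0 in all 3 and COL1A2 at 0 in H460 and mdR-H460. Of 4 glial markers MBP alone was above 1 CPM, and SOX10 and GFAP were at 0. The part of fibroblasts in the levels of the 8 genes was not tested. In wider lists at 1.5-fold, 4 of 5 measured fibroblast genes were lower in either derivative than in H460. Of 5 carcinoma markers KRT8, KRT18 and KRT19 made up nearly all of sums of 3234, 2575 and 1738 CPM. The fall of the sum was that of KRT19, at 1696, 194 and 40.3 CPM. KRT8 had 459, 625 and 494 CPM and KRT18 1079.2, 1755.3 and 1203.5, both highest in mdR-H460. In a wider epithelial list at 1.5-fold, 4 of 7 measured genes were higher and 1 lower in mdR-H460 than in H460. In ldR-H460 1 was higher and 4 lower than in H460. Over all genes the shares were 6.66% and 22.2%, then 11.6% and 22.1%. CDH1, the epithelial cadherin, was at 0 and EPCAM under 1 CPM in all 3 cultures, so these defining epithelial markers were absent or nearly so.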

How the data were processed

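Per the labels' protocols, cells were strained at 30 µm and 3′ libraries were made on a Chromium instrument, aiming at 5000 cells. The submitters' processing notes list Cell Ranger 3.0.2, Seurat 3.0 and GRCh38 but give no roles; annotation and strand use are not given in the sources used here. Deposited by the authors were UMI counts per gene symbol and cell, whole and not normalized, for cells that passed the authors' quality control.

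The 8 genes, the other lists and the naming rule were chosen with earlier results of these data known. Named list genes are up to 4 measured members with the largest ratio for a pair. ALCAM, NRCAM, CADM2, CNTN1, MAP1A, TUBA1A, TUBB2A, MAP2, UCHL1, VAMP2 and CHGA were named after their values were seen. Some list genes are not reported here. UMIs were summed per library and scaled to CPM, counts per 1000000 UMIs. A symbol a table does not list was set to 0, and 3 UMIs per library (0.0450 to 0.0496 CPM) stood for a 0 in folds, written as at least. CPM have exact Poisson, ratios binomial and shares Clopper-Pearson intervals at 95%. These cover counting error. No p-value was computed, as each group is 1 library.

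Thinning was without replacement. Phases were called in scanpy 1.11.5 from published S phase and G2/M lists. Positions are those of GENCODE 29 on GRCh38. Doublets were not called. The libraries shared 24 to 36 cell barcodes per pair. TMM (edgeR 4.0.16) and DESeq2 1.42.0 scaling factors, totals that leave out mitochondrial and ribosomal protein UMIs, cells given equal weight, thinned cells, filters on cells and genes and other thinning depths were tried. The ratio and co-detection steps were tested on simulated data.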

Additional observations from a re-analysis of the deposited data

How the results depend on the processing

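Every CPM ratio of the 8 genes kept its direction under all 7 alternatives of scaling, cell weight and cell choice, apart from TUBB2B in ldR-H460 against H460 (0.894 to 1.06), and the counts of the 8 genes past 2-fold were the same under each. Of these values 152 lay within the counting interval and 16 outside it, 11 of them with thinned cells, where fewer UMIs remain. TMM and DESeq2 factors added 0.18 and 0.18 to each log2 ratio of mdR-H460 over H460 and 0.12 and 0.10 to those of ldR-H460 over H460, and genes at least 2-fold higher and lower in the first pair then numbered 167 and 304 with TMM and 167 and 311 with DESeq2. Without mitochondrially encoded and ribosomal protein UMIs in the totals, 348 genes were at least 2-fold higher in ldR-H460 than in H460 and 277 than in mdR-H460, with 8231 and 7852 genes at 10 CPM or more, and the cause was not tested.

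Genes at least 2-fold higher and lower numbered 348 and 1218 at a limit of 1 CPM and 1028 and 2393 with none in mdR-H460 against H460, 660 and 1323 or 1520 and 2537 in ldR-H460 against H460, and 607 and 522 or 1477 and 1369 in ldR-H460 against mdR-H460, as more genes enter. At 1.5-fold, of all listed genes at 10 CPM or more in any library, 3 were higher and 20 lower, 5 and 15, and 11 and 7 in these pairs. Those of the 8 chosen genes that reached 10 CPM are among them. The share of all genes at these limits was not counted, so nothing is read from the numbers. At 1 CPM and 1.5-fold, 14 listed genes were higher in mdR-H460 than in H460 with TMM factors. With library totals it was 8 of 83, beside 6.66% of all genes.

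The median of observed over expected pairs was 1.03 at 8000 UMIs and 0.992 with another seed in ldR-H460, and 1.04 at 3000 and 1.06 at 8000 UMIs in H460, on both sides of 1. TUBB2B with NCAM1 in H460 gave 1.01 at 3000 UMIs, and the cause was not tested. Leaving out the deepest 5% of cells, chosen after seeing the data, kept every pair and share within its interval. No paired analysis was possible because each culture has 1 library. Shares near 0.1% rest on 1 to 4 cells and set no order among the genes.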

Other observations

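Genes of neuroendocrine secretion and synaptic transmission were also counted at 1.5-fold, and those named here did not share 1 order. Of 24 listed 10 were measured. In mdR-H460 against H460, 1 was higher and 2 lower, beside 6.66% and 22.2% of all genes. These counts are near that background, and nothing is read from them. In ldR-H460 against H460, 1 was higher and 5 lower, beside 11.6% and 22.1%. In ldR-H460 against mdR-H460, 1 was higher and 4 lower, beside 14.8% and 11.2%. SNAP25, a protein of vesicle fusion, had 1.81 CPM in H460, 8.32 in mdR-H460 and 5.06 in ldR-H460, 4.59-fold (3.76 to 5.64) higher in mdR-H460 than in H460. PCSK1, which cleaves prohormones, had 3.81, 2.78 and 0.480 CPM, CPE, which trims them, 2.08, 2.87 and 0.413, and ENO2, the neuron-specific enolase, 9.91, 5.67 and 2.73. INSM1, GRP and CALCA were not listed in any culture, while others of the list were seen in each. UCHL1 had 752 CPM in H460, 719 in mdR-H460 and 539 in ldR-H460. In the same order VAMP2 had 57.6, 44.8 and 46.3 CPM, SYT1 18.5, 12.4 and 10.8, and CHGA 2.01, 1.67 and 1.46.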
